A study of Mus musculus with 3 samples.

Results

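A total of 852 CAP-D3 peaks of Rb+/+ mouse embryonic fibroblasts overlapped no peak of RbΔL/ΔL fibroblasts but had one close by, with at most 10 kb between the edges. They were chosen by position alone, from the 8195 peaks listed for Rb+/+ cells and the 6437 peaks listed for RbΔL/ΔL cells, and are called adjacent peaks below. They made up 10.4% of the Rb+/+ list (exact 95% interval 9.74 to 11.1%) and 12.0% of the 7129 Rb+/+ peaks that overlapped no RbΔL/ΔL peak. The other Rb+/+ peaks were 1066 overlapping peaks, which shared at least 1 bp with a RbΔL/ΔL peak, and 6277 distant peaks, whose nearest RbΔL/ΔL peak was more than 10 kb away.

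CAP-D3 belongs to the non-SMC part of condensin II, one of the ring-shaped complexes that compact chromosomes and shape their folding in the nucleus. The retinoblastoma protein Rb restrains E2F transcription factors and also contacts chromatin regulators through a cleft that recognises the LXCXE motif. The RbΔL allele encodes a protein with this cleft mutated, and the series title names a complex of Rb, E2F1 and condensin II. A peak is a stretch of sequence where the authors' caller found more ChIP reads than its background model gives, so 2 neighbouring peaks may be separate sites or parts of one broad enriched stretch.

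The cells were primary fibroblasts in proliferating culture at passage 4, either Rb+/+ or RbΔL/ΔL, and each genotype gave 1 CAP-D3 ChIP library. The antibody was raised against a GST fusion with a fragment of CAP-D3. An input DNA library is the third sample of the series, and its genotype is not given in the labels. Its values were not used here, and the sequencing depth of the ChIP libraries is unknown. A single library stood for each genotype, so there are no p-values, a difference between the lists cannot be told apart from a difference between libraries, and the intervals cover counting error over peaks only. Positions are mm9. The gene and promoter tables at hand belong to another build, so sites are given by position, their genic, exonic or intronic location was not determined, and no sequence is printed.

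A gap is the number of bases between the facing edges of both peaks. Among the adjacent peaks, gaps ran from 3 to 9997 bp, with a median of 3886.5 bp and quartiles of 1264.75 and 6876.5 bp. The range is set by the rule, but the spread within it is not even. The first kilobase held 184 adjacent peaks, the second 103, and each later kilobase between 58 and 82. Within the first kilobase, 20 gaps were under 100 bp, 32 were 100 to 249 bp, 66 were 250 to 499 bp and 66 were 500 to 999 bp. Between the midpoints, the adjacent peaks of the first kilobase were a median of 823 bp from their RbΔL/ΔL neighbour. This compares with median widths of 414 bp for these Rb+/+ peaks.

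The limit itself fell in no natural break. Just inside it lay the Rb+/+ peaks at chr5:92797339-92797759 (gap 9997 bp, score 80.21), chr9:78356607-78357054 (gap 9992 bp, score 66.13) and chr11:45621946-45622286 (gap 9983 bp, score 56.49). Just outside it lay chr4:130352921-130353310 (gap 10002 bp, score 57.98), chr16:24487969-24488417 (gap 10014 bp, score 66.05) and chr18:68277428-68277877 (gap 10024 bp, score 65.98). The neighbouring RbΔL/ΔL peak of each of these 6 sites was itself without a Rb+/+ counterpart.

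To see how many such neighbours the local density of peaks gives, all RbΔL/ΔL peaks were moved together by 20, 50, 100 and 200 kb in each direction, and the 7129 unmatched Rb+/+ peaks were examined again. These 8 moves gave 502 to 690 peaks with a non-overlapping neighbour within 10 kb, with a mean of 610. The unmoved lists gave 852, which is 1.4 times the mean and above each of the 8 values. Against the moves of 20 kb alone, which stay closest to the local density, the ratio was 1.24. Counted over all 8195 Rb+/+ peaks, where overlapping peaks can become neighbours once the other list is moved, the moves gave 604 to 810 with a mean of 716, and the ratio was 1.19.

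The surplus over the moved lists was concentrated at short gaps. Under 500 bp there were 118 adjacent peaks against 17 to 40 after the moves, with a mean of 30.9. At 500 to 999 bp there were 66 against 23 to 39, and at 1000 to 1999 bp 103 against 48 to 81. At gaps of 2000 bp to 10 kb, 565 adjacent peaks stood against 401 to 556, with a mean of 485. All 4 intervals lay above every move, the last one by the smallest ratio to the mean (1.17). The smallest moves keep most of the neighbourhood, and for gaps of 2000 bp or more the moves of 20 kb gave 535 and 556, so the unmoved count was 1.04 times their mean. For gaps under 1 kb the same ratio was 2.39. Of the whole surplus of 242 peaks over the mean of the 8 moves, 122 had gaps under 1 kb. Both numbers depend on the moves taken, since larger moves gave fewer neighbours.

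**Figure D1:**
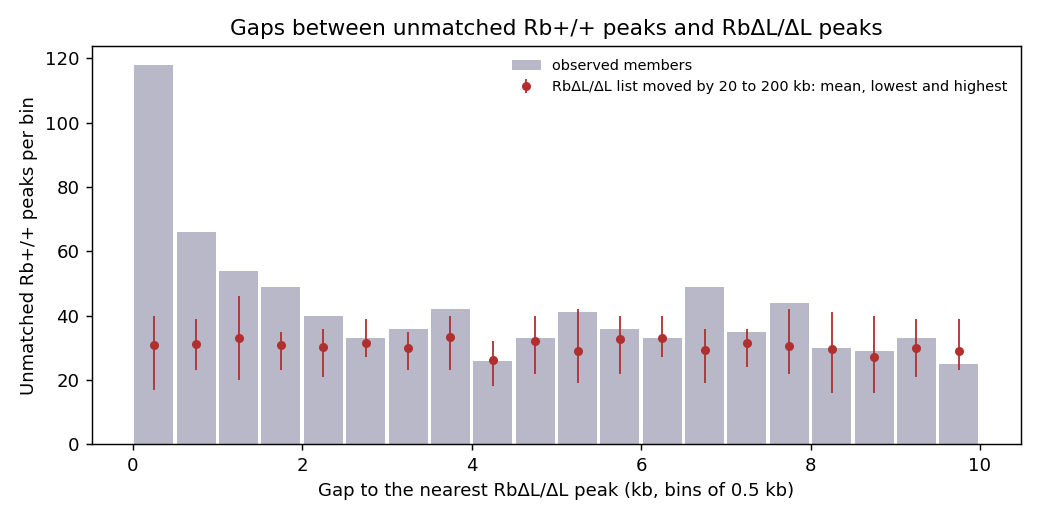
Number of unmatched Rb+/+ peaks by the gap to the nearest RbΔL/ΔL peak, in bins of 500 bp. Bars are the unmoved lists, and points with lines are the mean, lowest and highest of 8 moves of the RbΔL/ΔL list by 20 to 200 kb. The first bin holds 118 peaks against at most 40 after a move, the second 66 against at most 39, and the bars of the first 2 kb all end above their lines.

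Larger moves left fewer neighbours. Moves of 20 kb left 683 and 690 unmatched Rb+/+ peaks with a near RbΔL/ΔL peak, 50 kb left 643 and 644, 100 kb left 614 and 572, and 200 kb left 535 and 502. Moves of 500 kb left 475 and 518, and moves of 1000 kb left 439 and 385. The share of the unmatched peaks was thus 12.0% unmoved, 9.58 and 9.68% at 20 kb, and 6.16 and 5.40% at 1000 kb. A list displaced by 20 kb thus still gave most of the count seen in place.

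Gaps within a single list had a similar skew. Between consecutive Rb+/+ peaks, 193 gaps were under 1 kb, 78 were 1000 to 1999 bp and 481 were 2000 bp to 10 kb. Between consecutive RbΔL/ΔL peaks the numbers were 103, 42 and 267. Close neighbours at the scale of a peak's own width thus occurred both between the lists and inside each of them.

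Most RbΔL/ΔL peaks beside an adjacent peak had no Rb+/+ counterpart of their own. The nearest RbΔL/ΔL peak overlapped a different Rb+/+ peak for 172 of the 852 adjacent peaks (20.2%, interval 17.5 to 23.0%), against 16.6% of all RbΔL/ΔL peaks. After the 8 moves this share was 18.0 to 21.8%, with a mean of 20.2%, so the share in place lay within that of the displaced lists. For the other 680 adjacent peaks neither peak of the pair overlapped the other list. In 585 of these pairs the adjacent peak was in turn the nearest Rb+/+ peak of its neighbour. The RbΔL/ΔL neighbour lay at the lower coordinate in 417 cases (48.9%, interval 45.5 to 52.4%), and 33 adjacent peaks had RbΔL/ΔL peaks within 10 kb on both sides.

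The share of shared neighbours differed with the gap. Under 500 bp, 41 of 118 neighbours were shared (34.7%, interval 26.2 to 44.1%), against 17.8% of the 247 such pairs summed over the moves. At 500 to 999 bp 8 of 66 were shared (12.1%, interval 5.38 to 22.5%), at 1000 to 1999 bp 19 of 103 (18.4%), at 2000 to 4999 bp 35 of 210 (16.7%) and at 5000 bp to 10 kb 69 of 355 (19.4%). The high share was thus seen at the shortest gaps, where an adjacent peak abuts a site listed in both genotypes. The share over all gaps depended on how close peaks are split, and was 14.9% instead of 20.2% once peaks within 1 kb were merged. In the lists without merging, both kinds of neighbour were more frequent under 1 kb than after the moves. Whether this holds for merged peaks was not tested. Pairs with a shared neighbour numbered 49 against 5 to 20, and pairs with an unshared neighbour 135 against 32 to 70.

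The adjacent peaks beside a shared site were mostly its weaker companions in Rb+/+ cells. In 138 of the 172 cases (80.2%, interval 73.5 to 85.9%) the adjacent peak scored lower than the Rb+/+ peak at the shared site. The score is the caller's own value, lowest at 50.02 in both lists, and is used here to rank peaks within a list. The median score was 63.47 for these adjacent peaks and 116.07 for the Rb+/+ peaks at the shared sites, which themselves ranked lower than overlapping peaks in general (median 148.05). Since overlapping peaks score higher than unmatched ones throughout the list, this order says nothing particular about neighbours. In 52 cases the gap between the adjacent peak and that companion was under 1 kb, and the median was 3690.5 bp.

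The 5 smallest gaps show both arrangements. On chromosome 14 the Rb+/+ peak at chr14:26046431-26046833 (score 81.82) began 3 bp after the RbΔL/ΔL peak at chr14:26045980-26046427 (score 84.98). That RbΔL/ΔL peak overlapped another Rb+/+ peak, and the nearest other Rb+/+ peak lay 298 bp from the adjacent peak. On chromosome 5 the Rb+/+ peak at chr5:22939129-22939365 (score 90.17) lay 24 bp above a shared RbΔL/ΔL peak 786 bp wide, and 38 bp from the nearest other Rb+/+ peak. In both places Rb+/+ cells thus had a peak overlapping the RbΔL/ΔL peak as well as the adjacent peak beside it. The other 3 faced unshared RbΔL/ΔL peaks. They were chr1:184450021-184450573 (gap 7 bp, score 93.32), chr8:97056790-97057052 (gap 14 bp, score 76.95) and chr4:136157994-136158682 (gap 20 bp, score 72.74). Their neighbours scored 58.77, 57.49 and 72.28 in the RbΔL/ΔL list.

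Some adjacent peaks lay beside sites that ranked high in RbΔL/ΔL cells, and all 5 such neighbours with the highest scores were shared. No unshared peak of the whole RbΔL/ΔL list scored above 209.18, so the ranking by score fixed this. The RbΔL/ΔL peak at chr10:5959298-5959720 (score 763.46) had a Rb+/+ peak of score 56.32 at chr10:5967304-5967728, 7583 bp away. The one at chr9:121627861-121628459 (score 655.67) had a Rb+/+ peak of score 154.35 at chr9:121619326-121619780, 8080 bp away. At chr12:112776022-112776598 (score 509.04) the Rb+/+ peak chr12:112776624-112777122 (score 80.91) followed after 25 bp. The remaining sites were chr11:119161302-119161803 (score 490.45), with an adjacent peak of score 52.84 at 4510 bp, and chr14:58416906-58417281 (score 489.32), with one of score 57.47 at 470 bp. Of these 5 adjacent peaks, the one on chromosome 9 ranked 575 of 8195 in the Rb+/+ list and the one on chromosome 12 ranked 1679, and the other 3 ranked between 5434 and 7721.

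By score, adjacent peaks resembled the distant peaks far more than the overlapping ones. Their median score was 62.16 (quartiles 56 and 74.39), against 60.41 (quartiles 55.39 and 69.16) for distant peaks and 148.05 (quartiles 84.18 and 283.23) for overlapping peaks. The 95% interval of the median was 61.03 to 63.49 for adjacent and 60.04 to 60.83 for distant peaks, so these intervals did not meet, although the medians were close. A score of 100 was reached by 49 adjacent peaks (5.75%, interval 4.28 to 7.53%), 283 distant peaks (4.51%, interval 4.01 to 5.05%) and 708 overlapping peaks (66.4%), against 12.7% of the whole Rb+/+ list. The highest score of an adjacent peak was 194.21, whereas distant peaks reached 437.8. Widths did not separate the unmatched classes. The median was 426.5 bp for adjacent peaks (interval 418 to 435), 421 bp for distant peaks (interval 419 to 424) and 511.5 bp for overlapping peaks.

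**Figure D2:**
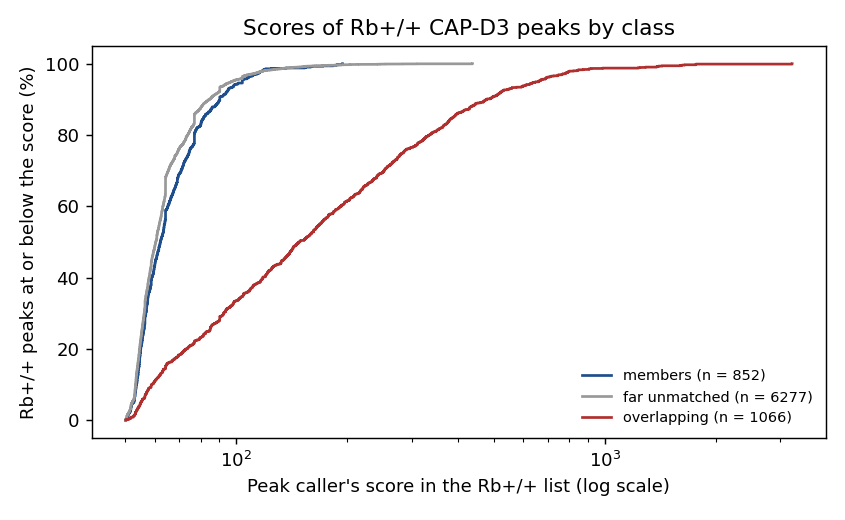
Cumulative share of Rb+/+ peaks (y axis, percent) by the caller's score (x axis, log scale) for adjacent peaks (labelled members), distant peaks (labelled far unmatched) and overlapping peaks. The curves of the 852 adjacent and 6277 distant peaks run close together, with medians of 62.16 and 60.41, and that of the 1066 overlapping peaks lies far to the right, with a median of 148.05.

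Among unmatched Rb+/+ peaks, the share that was adjacent was somewhat larger at higher scores. It was 10.8% of 3409 peaks scoring 50 to below 60 (interval 9.77 to 11.9%), 12.1% of 2791 scoring 60 to below 80, 16.4% of 597 scoring 80 to below 100 (interval 13.5 to 19.6%) and 14.8% of 332 scoring 100 or more (interval 11.1 to 19.0%). The moves gave 17 to 36 of those 332 strong peaks a neighbour, with a mean of 29.4, against 49 unmoved. Under 1 kb the unmoved lists gave 14 of them and the moves 0 to 7.

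The scores of the pairs did not go together. Across the 852 pairs, Spearman's rho between the score of the adjacent peak and that of its RbΔL/ΔL neighbour was 0.03, and across the 184 pairs with a gap under 1 kb it was -0.03. Across the 1066 overlapping Rb+/+ peaks and their RbΔL/ΔL partners it was 0.74. These are descriptions over peaks of the same libraries, which are not replicates, and unmatched pairs cover a narrower range of scores than overlapping ones. The RbΔL/ΔL neighbours had a median score of 65.68 in their own list, equal to the median of all RbΔL/ΔL peaks. This median was 106.81 for the shared and 63.01 for the unshared neighbours. The value 65.68 is also the most common score of the RbΔL/ΔL list, held by 335 of 6437 peaks (5.20%) and by the neighbours of 42 of the 852 adjacent peaks (4.93%).

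The 5 highest-scoring adjacent peaks included 3 with a RbΔL/ΔL peak less than 1 kb away. Of all 852 adjacent peaks, 184 (21.6%) had a gap under 1 kb. Spearman's rho between score and gap over the 852 was -0.00, so no trend was seen over the whole range. The median score was 64.24 (interval 61.2 to 69.01) at gaps under 1 kb and 61.78 (interval 60.26 to 63.18) at 1 kb or more. These intervals overlap, and the 5 peaks were picked by score, so they do not stand for the rest. The first, chr18:58037607-58038299 (score 194.21), ranked 441 in the Rb+/+ list and lay 619 bp from an unshared RbΔL/ΔL peak of score 69.04. The peak chr13:55206158-55206776 (score 187.84) lay 452 bp from an unshared RbΔL/ΔL peak of score 55.88. The peak chr13:58502619-58503159 (score 186.26) lay 319 bp from a shared one of score 154.84 and 282 bp from another Rb+/+ peak. The other 2 had their neighbours close to the limit, chr13:107726785-107727186 (score 193.46) at 9749 bp and chr17:35301566-35302218 (score 183.38) at 9623 bp.

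Adjacent peaks often had company within the Rb+/+ list too. Another Rb+/+ peak lay within 10 kb of 350 adjacent peaks (41.1%, interval 37.8 to 44.5%), against 17.0% of the whole list. For distant peaks the share was 13.2% and for overlapping peaks 20.2%. Part of this follows from how the adjacent peaks were chosen. All 172 with a shared RbΔL/ΔL neighbour had another Rb+/+ peak within 10 kb, and those without a shared neighbour had one in 178 of 680 cases (26.2%, interval 22.9 to 29.7%). Peaks make each other clustered, so these intervals, which treat peaks as independent, are too narrow.

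The 852 adjacent peaks fell beside 748 different RbΔL/ΔL peaks, 660 of which had 1 adjacent peak and 76 had 2. A single RbΔL/ΔL peak on chromosome 5, chr5:137545452-137545955 (score 58.21, unshared), had 6 adjacent Rb+/+ peaks. They were chr5:137537415-137537900, chr5:137542490-137542968, chr5:137544075-137544569, chr5:137544636-137545110, chr5:137547895-137548351 and chr5:137551845-137552321. In this order their gaps to the RbΔL/ΔL peak were 7551, 2483, 882, 341, 1939 and 5889 bp, and their scores were 63.49, 87.42, 98.3, 53.19, 54.28 and 53.2. Rb+/+ cells thus had peaks on both sides of the RbΔL/ΔL peak and none on it, and those scoring 98.3 and 87.42 ranked 1067 and 1423 of 8195 in the Rb+/+ list. The next most crowded, chr19:5809502-5810322 (score 109.06, unshared, 821 bp wide), had 4 adjacent peaks. Those at chr19:5804425-5804884, chr19:5810454-5810822, chr19:5812117-5812684 and chr19:5817500-5817994 had gaps of 4617, 131, 1794 and 7177 bp and scores of 50.77, 52.12, 80.64 and 55.53. Both loci were picked out for these counts.

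Beyond the nearest neighbour, adjacent peaks stood in regions where both lists were dense. To leave out the stretch used for the choice, peaks were counted between 20 and 500 kb on either side of each peak's midpoint. This does not make the counts independent of the choice. A near RbΔL/ΔL peak is more often found in dense regions, and density extended further than 20 kb (moves of 200 kb left 535 and 502 neighbours, moves of 1000 kb 439 and 385). Part of the contrast with distant peaks thus follows from the rule. Around adjacent peaks there were a median of 6 Rb+/+ peaks (quartiles 3 and 9) and 5 RbΔL/ΔL peaks (quartiles 3 and 7). Around distant peaks the medians were 4 and 3, and around overlapping peaks 5 and 4. No RbΔL/ΔL peak was found in this range for 31 adjacent peaks (3.64%, interval 2.49 to 5.13%), 613 distant peaks (9.77%, interval 9.04 to 10.5%) and 63 overlapping peaks (5.91%, interval 4.57 to 7.50%). At 50 to 100 kb the mean density around adjacent peaks was 9.48 Rb+/+ and 6.94 RbΔL/ΔL peaks per Mb. Around distant peaks it was 5.92 and 4.49 and around overlapping peaks 7.89 and 5.31, and at 400 to 500 kb the adjacent peaks still had 5.92 and 4.40 against 4.74 and 3.54. At that distance the overlapping peaks had 5.72 and 4.61, so adjacent peaks no longer had the denser RbΔL/ΔL surroundings of these 2 classes. Neighbouring peaks share their surroundings, so these values are given without a test.

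**Figure D3:**
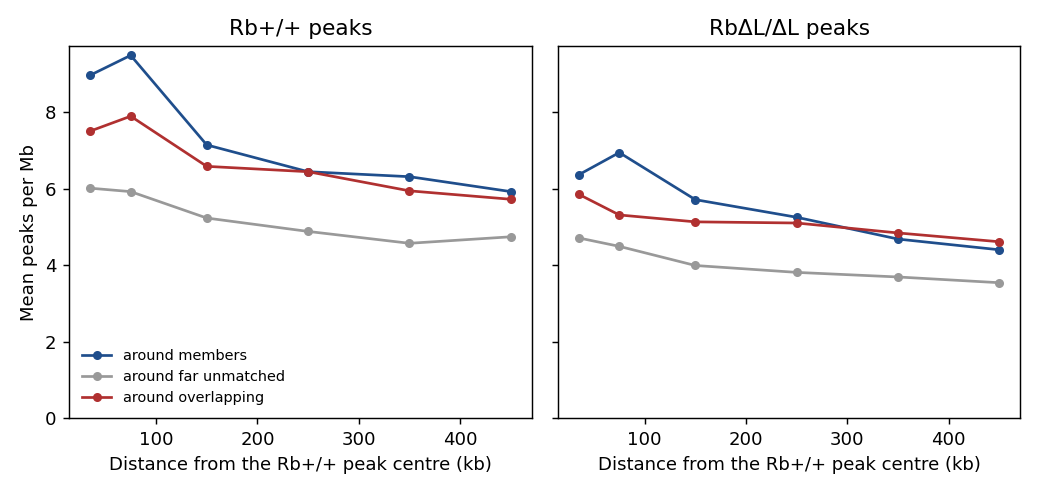
Mean number of Rb+/+ peaks (left) and RbΔL/ΔL peaks (right) per Mb, by distance from the centre of the Rb+/+ peak (20 to 500 kb), around adjacent peaks (labelled members), distant peaks (labelled far unmatched) and overlapping peaks. The line of the adjacent peaks starts highest, at 8.96 and 6.36 peaks per Mb between 20 and 50 kb, and stays above that of the distant peaks out to 500 kb. It meets the line of the overlapping peaks at 200 to 300 kb for Rb+/+ peaks (6.44 for both) and lies below it from 300 kb on for RbΔL/ΔL peaks (4.68 against 4.84, then 4.40 against 4.61).

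By chromosome, the share of Rb+/+ peaks that were adjacent was highest on chromosome 19, with 41 of 275 (14.9%, interval 10.9 to 19.7%), and chromosome 7, with 75 of 540 (13.9%, interval 11.1 to 17.1%). It was lowest on the X chromosome, with 11 of 221 (4.98%, interval 2.51 to 8.73%), and the next lowest was chromosome 6, with 32 of 441 (7.26%, interval 5.02 to 10.1%). The moved lists followed much of this order. On X they gave a mean of 6.38 adjacent peaks, from 3 to 12, and on chromosome 19 a mean of 30.5, from 20 to 44, so the unmoved counts of 11 and 41 lay within the range of the moves on both.

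On 9 of the 20 chromosomes the unmoved count lay above all 8 moves, on 11 it lay within their range, and on none below it. The 9 were chromosomes 3, 4, 6, 7, 8, 10, 11, 12 and 17. On chromosome 7 there were 75 adjacent peaks against 36 to 63 after the moves, on chromosome 8 52 against 16 to 44, and on chromosome 3 50 against 22 to 33. The ratio to the mean of the moves ran from 1.10 on chromosome 6 to 1.94 on chromosome 8. Adjacent peaks with gaps under 1 kb were found on all 20 chromosomes, from 2 on X to 20 on chromosome 11.

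**Figure D4:**
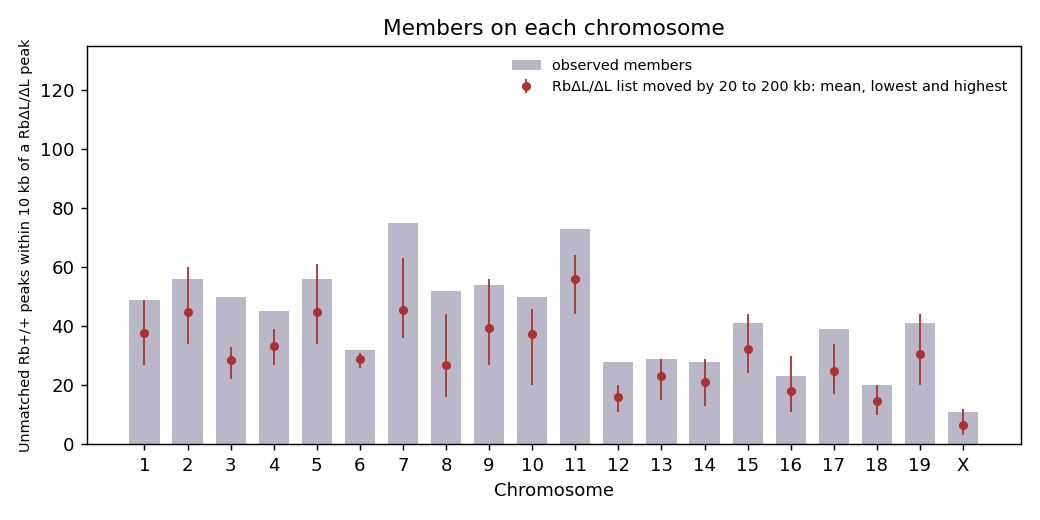
Number of adjacent Rb+/+ peaks (labelled members) on each chromosome. Bars are the unmoved lists, and points with lines are the mean, lowest and highest of 8 moves of the RbΔL/ΔL list by 20 to 200 kb, counted over the unmatched Rb+/+ peaks; the bar exceeds the line on 9 of 20 chromosomes.

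The adjacent peaks were spread over 534 windows of 1 Mb, of which 349 held 1 and 108 held 2. The window with most of them was 5 to 6 Mb of chromosome 19, with 10 adjacent peaks at gaps of 101 to 7177 bp and scores of 50.77 to 95.15. Next were 137 to 138 Mb of chromosome 5 with 9, 23 to 24 Mb of chromosome 13 with 8, 79 to 80 Mb of chromosome 10 with 7 and 69 to 70 Mb of chromosome 11 with 6. After the moves these windows held 0 to 11, 1 to 7, 0 to 6, 1 to 8 and 1 to 6 adjacent peaks, so the windows on chromosomes 5 and 13 exceeded every move and the others did not. The 8 adjacent peaks on chromosome 13 lay between 23523244 and 23618737 and were 8 of the 13 Rb+/+ peaks of their window, in which 1 Rb+/+ peak overlapped a RbΔL/ΔL peak and 6 RbΔL/ΔL peaks were listed. These windows were ranked by the count that is described, so a high count is not a separate result.

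**Figure D5:**
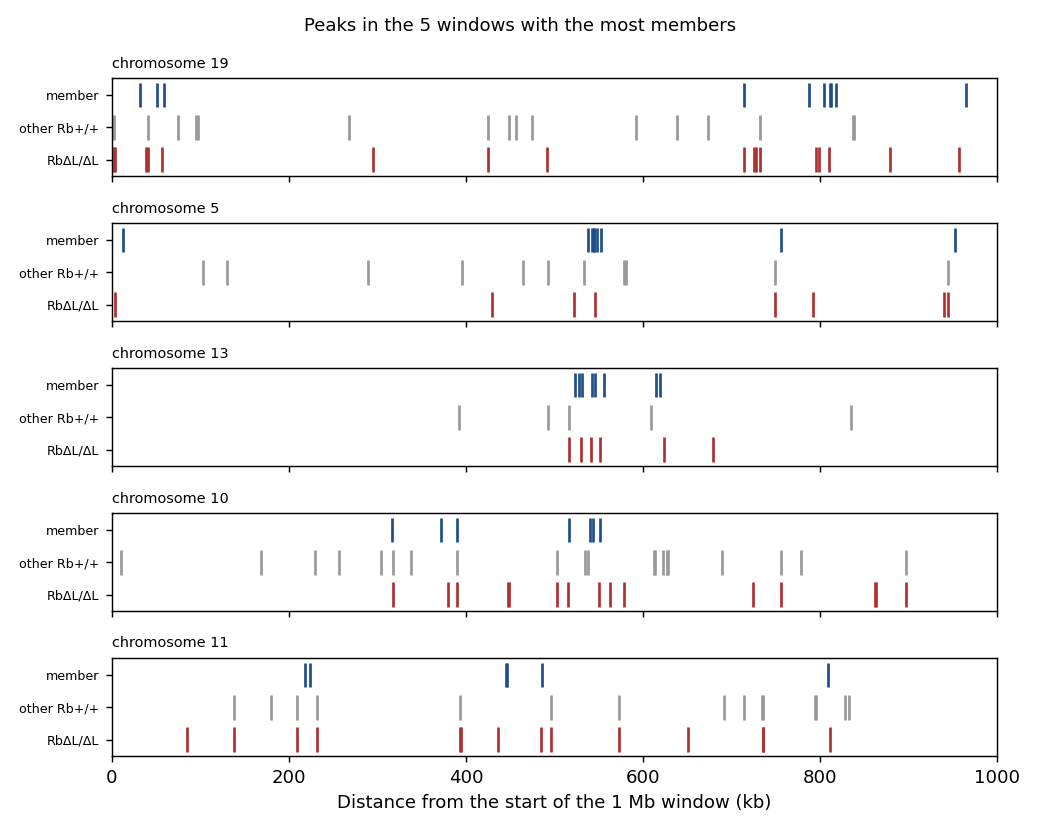
Positions of adjacent Rb+/+ peaks (labelled member), other Rb+/+ peaks and RbΔL/ΔL peaks in the 5 windows of 1 Mb with the most adjacent peaks, as distance from the start of the window in kb. Each tick is the midpoint of 1 peak. The 6 adjacent peaks beside a single RbΔL/ΔL peak show as a tight group in the chromosome 5 window, and in the chromosome 13 window all 8 lie in a short stretch of the window.

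With the lists exchanged, 753 RbΔL/ΔL peaks out of 6437 (11.7%, interval 10.9 to 12.5%) met no Rb+/+ peak but had one within 10 kb. The corresponding share of the Rb+/+ list was 10.4% (interval 9.74 to 11.1%). The lists differ in length, and a longer partner list gives more neighbours, so these shares are set side by side only.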

How the data were processed

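The data are 1 list of CAP-D3 ChIP-seq peaks per genotype, called per sample. The submitters' processing notes name Bowtie 1.0, MACS 1.4.2 and the mm9 build. Parameters, control and read filters are not given in the sources at hand, and they can affect how neighbouring enriched stretches are split or joined. The deposited score is the caller's value per peak, and its unit is not stated in the files.

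Overlap of at least 1 bp, gaps and fixed moves of the RbΔL/ΔL list were computed with scipy 1.17.1, pandas 2.3.3 and numpy 2.4.6 under Python 3.11.15. Nothing was drawn at random. Starts are printed 1-based, taking the files as 0-based. Shares have exact (Clopper-Pearson) and medians exact order-statistic intervals, at 95%. The comparison code was tested on simulated data. The peaks and the tests were chosen with earlier results of these data known. Sites named are the 5 highest scores, smallest gaps and highest-scoring neighbours, 3 on each side of the limit, and the 5 fullest windows. Depth is unknown.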

Additional observations from a re-analysis of the deposited data

How the results depend on the processing

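No paired analysis was possible because only 1 library stands for each genotype, which also leaves no replicate to drop. Of 42 alternative values for 8 results, 23 stayed within the interval of the reported value (for the moved lists, within 1.5 times) and 19 moved. Leaving out the megabases with a peak over 1 kb wide in both lists and counting the moves over unmatched peaks were chosen after seeing the data. A gap limit of 5 kb gave 6.06% of Rb+/+ and 6.90% of RbΔL/ΔL peaks, with 44.7% of adjacent peaks beside another Rb+/+ peak, and a limit of 20 kb gave 17.2%, 19.2% and 33.0%, as the limit itself sets. A reciprocal overlap of 50% gave 13.5% of Rb+/+ and 15.7% of RbΔL/ΔL peaks, a median gap of 2138.5 bp and 11.4% shared neighbours, since partly overlapping peaks then count as neighbours. Merging peaks within 1 kb gave 14.9% shared neighbours. Equal list lengths gave 9.82% of RbΔL/ΔL peaks and 36.5% of adjacent peaks beside another Rb+/+ peak. With a score of at least 100 in both lists only 8 peaks met the rule (0.769% of Rb+/+, and 0.831% of RbΔL/ΔL peaks by the exchanged rule). Their median gap was 5765 bp, with 75.0% for both the shared neighbours and the company of another Rb+/+ peak. This setting also changes the unmatched set, since Rb+/+ peaks that overlap only RbΔL/ΔL peaks scoring below 100 then count as unmatched. It gave 514 unmatched peaks, against 332 of that score beside the full RbΔL/ΔL list. With both lists cut, the moves gave a mean of 22.9 over all Rb+/+ peaks and of 11.0 over the 514 unmatched ones (7 to 14). In this changed set the surplus over the moved lists was thus not seen, and the cause was not tested. Rb+/+ peaks of that score beside the full RbΔL/ΔL list did show it (49 against 17 to 36). Read depth is unknown, and most of the adjacent peaks are near the lowest score listed.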
